A study of Homo sapiens with 4 samples.

Results

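MCF-10A is a non-tumorigenic human mammary epithelial line that arose spontaneously in culture. The profile described here is the mean over 3 of the 4 Agilent arrays of the series: stapled-peptide 24 h, non-specific stapled-peptide 24 h and stapled-peptide 48 h. Each of the 4 arrays carried RNA of 1 condition, from cells grown for 48 h, given peptide at 10 µM and collected 24 h or 48 h later, in medium with cholera toxin at 100 ng/mL. No untreated culture was among them, so every value belongs to peptide-treated cells, and with 1 array per condition no test was possible and the arrays are not replicates of 1 treatment. The spread of a gene among the 3 arrays is therefore given as the gap between its highest and lowest log2 signal. A plain standard deviation between arrays (SD, n = 3) is given for probes spotted 10 times and used to judge alternative settings.

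These 3 arrays were put together because they resembled each other, and their correlations are given as a description only. Over 50590 probes, Pearson's r was 0.981 between both arrays at 24 h, and the stapled-peptide 48 h array had 0.9802 with non-specific stapled-peptide 24 h and 0.979 with stapled-peptide 24 h, which falls just short of the limit of 0.98. With the array left out, non-specific stapled-peptide 48 h, r was between 0.870 and 0.874, and 78.5% of genes were well above background on it. All 4 arrays lay on 1 slide. On the 3 arrays 62.5% to 64.6% of spots were well above background, a mark that the scanner software gives to spots whose signal stands clear of the local background, and 2 to 5 of 308 negative control spots carried it. The signal of a probe also depends on how well it hybridizes, and among 5764 genes with several probes the brightest and the dimmest differed by a median of 1.95 log2 units, so signals of different genes do not rank their RNA levels.

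The mammary gland is built of an inner luminal layer, which makes milk and carries the hormone receptors, and an outer basal or myoepithelial layer, which rests on the basement membrane. Basal cells are known by keratins 5 and 14, the transcription factor p63 and the integrins and laminin of hemidesmosomes, and luminal cells by keratins 8, 18 and 19 and the oestrogen receptor. Cultured mammary lines often carry features of several layers, and of mesenchyme as well.

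Of 50592 probes, 27926 (55.2%) were well above background on all 3 arrays, 6340 (12.5%) on 1 or 2 and 16326 (32.3%) on none. RefSeq accessions gave 28169 probes a symbol, for 20502 genes, and a gene was taken as marked when any of its probes was. By this count 14862 genes (72.5%) were marked on all 3 arrays, 1731 (8.44%) on 1 or 2 and 3909 (19.1%) on none. Genes marked on all 3 arrays had a median log2 signal of 8.35 and reached down to 4.04, and genes marked on none had a median of 2.52 and reached up to 4.27. Below, bright stands for a mean log2 signal of 9 or more and dim for one below 6. A signal of 6 or more was held by 11651 genes of the first class (56.8% of all genes). Protein-coding genes were marked on all 3 arrays in 74.5% of 18195 cases, long non-coding RNAs in 50.9% of 1370 and small nucleolar RNAs in 61.6% of 297.

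**Figure D1:**
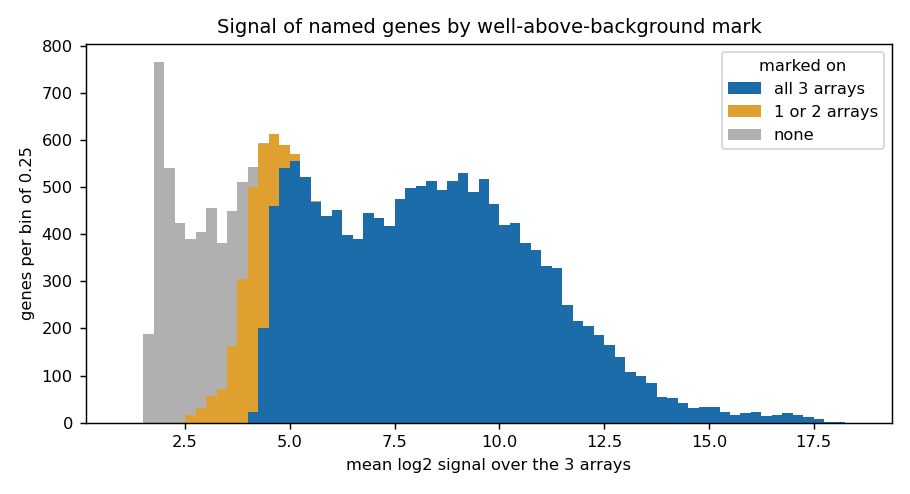
The histogram counts the 20502 named genes by mean log2 signal over the 3 arrays (x axis) in bins of 0.25, coloured by the arrays on which they were well above background. Genes marked on none end at 4.27, genes marked on all 3 begin at 4.04, and the narrow zone between 4 and 5 holds most genes marked on 1 or 2 arrays.

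The 3 arrays lay close together for bright genes and apart for dim ones. They were chosen for their likeness and quantile-normalized to each other, so these gaps are a description only. Normalization gives a probe of the same rank on every array the same value, and RPS2, RPL13 and EEF1A1 had a gap of 0. For genes marked on all 3, the median gap between the highest and the lowest array was 0.36 log2 units below a signal of 6, 0.17 from 6 to 9, 0.10 from 9 to 12, 0.08 from 12 to 15 and 0.07 at 15 or more. A gap over 1, or 2-fold, occurred in 207 genes (1.39%), and 154 of these lay below 6. Among the 678 probes spotted 10 times on each array and marked on all 3, replicate spots within an array had a median SD of 0.08, 0.07 and 0.07, and the probe means had a median SD of 0.06 between arrays. These SDs are not comparable. The former are of single spots before normalization, and the latter is of means over the spots after it.

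**Figure D2:**
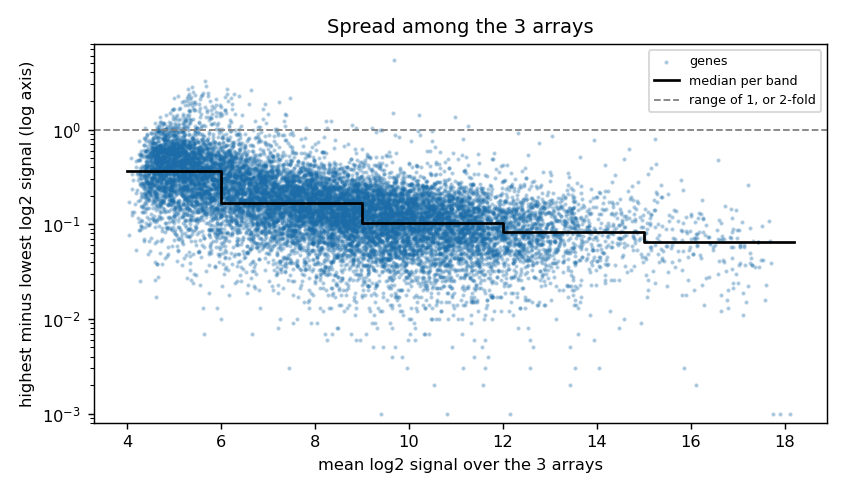
Each point is 1 of the 14862 genes marked on all 3 arrays, with its mean log2 signal on the x axis and the gap between its highest and lowest array on a log y axis, where 5 genes with a gap under 0.001 are drawn at 0.001. The median gap per band (black line) steps from 0.36 below a signal of 6 to 0.07 at 15 or more, and the dashed line marks a 2-fold gap. The arrays were chosen for their likeness and quantile-normalized to each other, so the gaps are a description only.

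The rule named 4 marker genes, all of them bright on every array, and as they were picked with these signals known they are given as a description. KRT5, the basal type II keratin, had log2 signals of 14.68, 14.56 and 14.62 on stapled-peptide 24 h, non-specific stapled-peptide 24 h and stapled-peptide 48 h, the order kept for all values below. ITGB4, the hemidesmosomal integrin chain, had 15.20, 15.24 and 15.29. KRT6A, a keratin of activated and cultured keratinocytes, had 13.10, 13.10 and 13.17, and SAA1, an acute-phase apolipoprotein, had 16.07, 16.08 and 16.14. The gaps between the arrays were no wider than 0.12 log2 units for any of the 4.

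Basal genes were marked throughout. Of 29 basal epithelial genes on the array, 29 were marked on all 3 arrays against 72.5% of all genes, and their median log2 signal of 10.38 compares with 6.84 over all genes. The list holds KRT5, KRT6A and ITGB4 of the rule, and without them 26 of 26 were marked, with a median of 10.25. KRT14, the type I partner of keratin 5, had 12.34, 12.07 and 12.20, and its other probes had means of 11.62 and 10.36. TP63, which encodes the basal regulator p63, was dim, with 6.16, 5.94 and 5.82 at its only probe. SFN (13.60), which encodes the checkpoint protein 14-3-3 sigma, CD44 (14.01, and 5.95 at its other probe), the hyaluronan receptor, and S100A2 (15.29), a calcium-binding protein of basal cells, were all bright. The dimmest members were ITGA2 (4.93), JAG2 (5.75) and KRT6B (5.78).

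The promoters of some genes discussed here are printed as the 120 bases before the RefSeq transcription start (GRCh38.p14), to show the contrast in CpG content between families that comes up below. Capitals mark each CG and, where present, TATAAA on the gene's strand between 40 and 20 bases before the start. RPL13 (chr16:89560537-89560656, plus strand) and MRPS24 (chr7:43869518-43869637, minus strand) encode ribosomal proteins of the cytosol and of mitochondria, KRT5 (chr12:52520395-52520514, minus strand) is the basal marker, KRTAP1-3 (chr17:41034875-41034994, minus strand) is a hair keratin-associated gene, and CSN2 (chr4:69965729-69965848, minus strand) encodes beta-casein of milk.
RPL13: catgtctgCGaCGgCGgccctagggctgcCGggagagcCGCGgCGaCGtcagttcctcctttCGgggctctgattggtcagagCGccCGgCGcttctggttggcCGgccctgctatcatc
MRPS24: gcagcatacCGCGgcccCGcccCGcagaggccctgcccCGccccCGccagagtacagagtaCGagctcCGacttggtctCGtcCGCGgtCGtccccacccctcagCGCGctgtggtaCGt
KRT5: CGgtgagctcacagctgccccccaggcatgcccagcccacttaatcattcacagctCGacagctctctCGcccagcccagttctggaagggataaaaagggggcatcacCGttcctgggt
KRTAP1-3: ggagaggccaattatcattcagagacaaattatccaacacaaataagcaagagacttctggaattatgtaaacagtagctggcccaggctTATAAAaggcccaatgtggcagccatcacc
CSN2: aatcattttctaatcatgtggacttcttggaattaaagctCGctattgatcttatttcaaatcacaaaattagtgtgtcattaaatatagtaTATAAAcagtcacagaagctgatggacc

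The keratins, the intermediate filaments of epithelia, divided by kind. Of 53 type I and II keratin genes, 25 were marked on all 3 arrays (47.2%, below the 72.5% of all genes), 7 on 1 or 2 and 21 on none. Besides KRT5 and KRT14, the simple-epithelium keratins KRT7 (15.97) and KRT18 (14.78) and the differentiation keratin KRT10 (13.26) were bright, as were KRT17 (11.63), KRT8 (11.76, and 6.09 at its other probe), KRT6C (10.74), KRT16 (10.31) and KRT15 (9.86). KRT19, a luminal keratin, was near the background with 5.00, 4.60 and 4.54, all 3 marked. KRT1, the type II keratin that pairs with KRT10 in epidermis, had a mean of 2.61 and was marked on none of the arrays. Among type I hair keratins 2 of 10 were marked on all 3 arrays, none with a signal of 6 or more. Of type II hair keratins 3 of 5 were marked, also a share below that of all genes. They were led by KRT81 with 14.55, 14.78 and 14.65 and KRT83 with 11.71, 11.70 and 11.60. KRT6A and KRT6C, and KRT81 and KRT83, are close relatives in sequence, and whether their probes tell them apart was not tested.

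Genes of the cell's hold on the basement membrane were marked to different degrees, against 72.5% of all genes. All 12 laminin chain genes on the array were marked on all 3 arrays, among them LAMB3 at 13.83 and LAMA3 at 11.10, which encode chains of the laminin that anchors basal epithelia. Of 26 integrin chains 19 were marked on all 3 arrays, a share near that of all genes. After ITGB4 the collagen-binding ITGA10 (13.86) and the laminin-binding ITGA3 (11.87) were brightest. ITGA6, the partner of the beta-4 chain, had a mean of 9.55 at its brighter probe, with a gap of 0.02 between arrays. At its other probe ITGA6 had 8.13, 8.05 and 8.38. Of 44 collagen chains 28 were marked on all 3 arrays (63.6%, below that of all genes), among them COL8A1 (14.33), COL12A1 (13.24), the basement membrane chain COL4A2 (13.06) and the anchoring fibril chain COL7A1 (11.19). The hemidesmosomal COL17A1 had 7.45, 6.77 and 6.99.

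Of 24 mature luminal genes 17 were marked on all 3 arrays (70.8%, near the 72.5% of all genes), 2 on 1 or 2 and 5 on none, with a median log2 signal of 5.62 against 6.84 over all genes. KRT7 and KRT18, the transcription factor XBP1 (12.10) and the mucin MUC1 (11.58, and 5.88 at its other probe) were bright, and the luminal regulators GATA3 and FOXA1 had 7.88 and 6.05. Among those marked on none were PGR, which encodes the progesterone receptor, and AGR2, PIP and SCGB2A2, which encode secreted luminal proteins. Of 12 luminal progenitor genes 7 were marked on all 3 arrays, MFGE8 (11.53), SLPI (11.38) and ALDH1A3 (9.83) the brightest, and KIT, ELF5, PROM1 and TNFRSF11A were marked on none. Among 10 genes of milk and lactation the caseins CSN1S1 (1.89) and CSN2 (1.91) and LALBA (2.05), which encodes alpha-lactalbumin, were marked on none, and the kappa-casein gene CSN3 had a dim 4.64, 5.27 and 5.40. Of 14 myoepithelial contractile genes 13 were marked on all 3 arrays. TPM2 (15.13) and CALD1 (12.07) were the brightest, and ACTA2, the smooth muscle actin, had 9.44. Dim were 5 of the 13, ACTG2 (4.46), NGFR (4.77), LMOD1 (5.05), OXTR (5.28) and MYH11 (5.45). The other probes of LMOD1 (3.40) and MYH11 (1.95) were marked on none of the arrays. CNN1 (3.67), the calponin of mature myoepithelium, was marked on none.

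**Figure D3:**
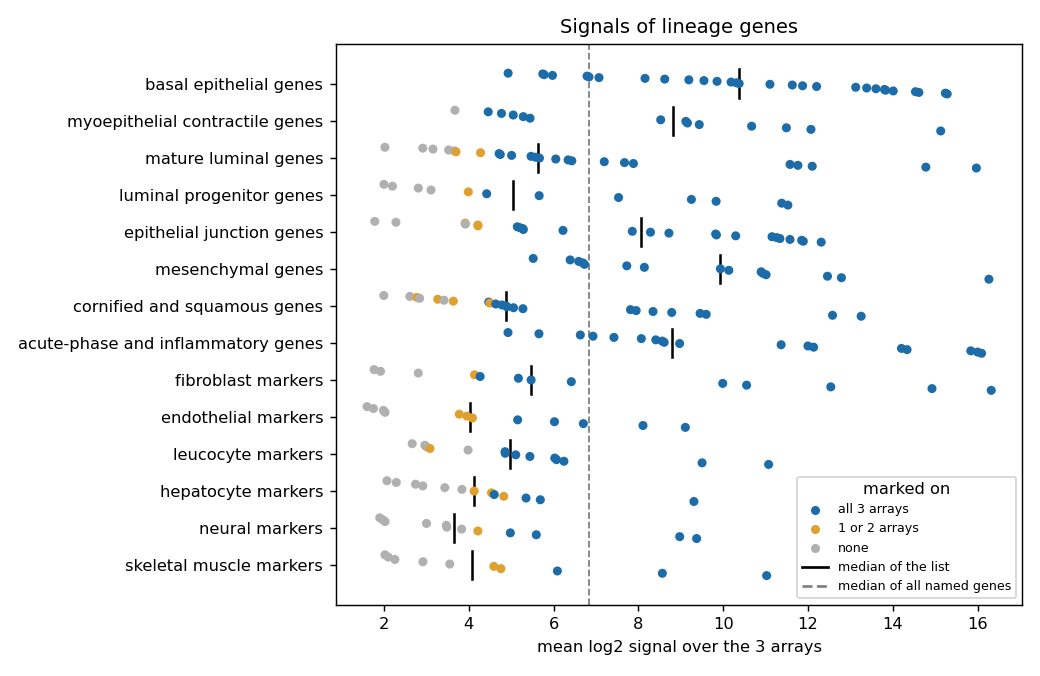
Each point is a gene of the list named on the y axis, at its mean log2 signal over the 3 arrays (x axis), coloured by the arrays on which it was well above background, with the list's median as a black bar and the median of all 20502 genes, 6.84, as a dashed line. Basal (10.38) and mesenchymal (9.94) genes have the highest medians of the 14 lists drawn, and together with the acute-phase list no unmarked member, and the medians of the luminal, hepatocyte, neural and muscle lists lie below the dashed line.

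Of 24 epithelial junction genes 18 were marked on all 3 arrays (a share near the 72.5% of all genes), and the desmosomal genes JUP (11.34), DSP (11.27) and PKP3 (11.85) were bright. CDH1, which encodes E-cadherin, had 4.93, 5.25 and 5.43 at its only probe, and EPCAM, the epithelial cell adhesion molecule, had 4.88, 5.43 and 5.55, which puts both among the 3211 genes (21.6% of those marked on all 3 arrays) with a mean below 6. CLDN3, ESRP1, an epithelial splicing regulator, and OVOL1, an epithelial transcription factor, were marked on none. All 15 mesenchymal genes were marked on all 3 arrays, with a median of 9.94 against 6.84 over all genes. VIM, the intermediate filament of mesenchyme, had 16.28, 16.21 and 16.32, CDH2, which encodes N-cadherin, had 10.92, 10.85 and 11.03, and TWIST1, a transcription factor of mesenchyme, had 10.96, 10.86 and 10.87 and a mean of 6.33 at its other probe. FN1 (12.46), SPARC (11.01), ZEB1 (10.13, and 7.93 at its other probe) and SNAI2 (7.73) were marked as well. With a single probe for CDH1, a poorly hybridizing probe and a low RNA level cannot be told apart.

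Of 13 fibroblast markers 9 were marked on all 3 arrays (69.2%, near the 72.5% of all genes), 1 on 1 or 2 arrays and 3 on none. FBLN1, a fibulin of the matrix, had 16.33, 16.33 and 16.31 and was bright at all 3 of its probes (16.12 and 14.04 at the others), and the proteoglycan gene DCN had 14.87, 14.99 and 14.91 and 11.53 at its other probe. DPT (12.54), FAP (10.55) and POSTN (9.99) followed. The defining fibrillar genes COL1A2 (2.81) and COL3A1 (1.77) and the proteoglycan gene LUM (1.92) were marked on none, and COL1A1 had 6.42. Summed over the list, linear signals lay between 120700 and 124000 on the 3 arrays. In a bulk RNA sample a few cells of another type and little RNA in every cell cannot be told apart, and this holds for every lineage list here.

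**Figure D4:**
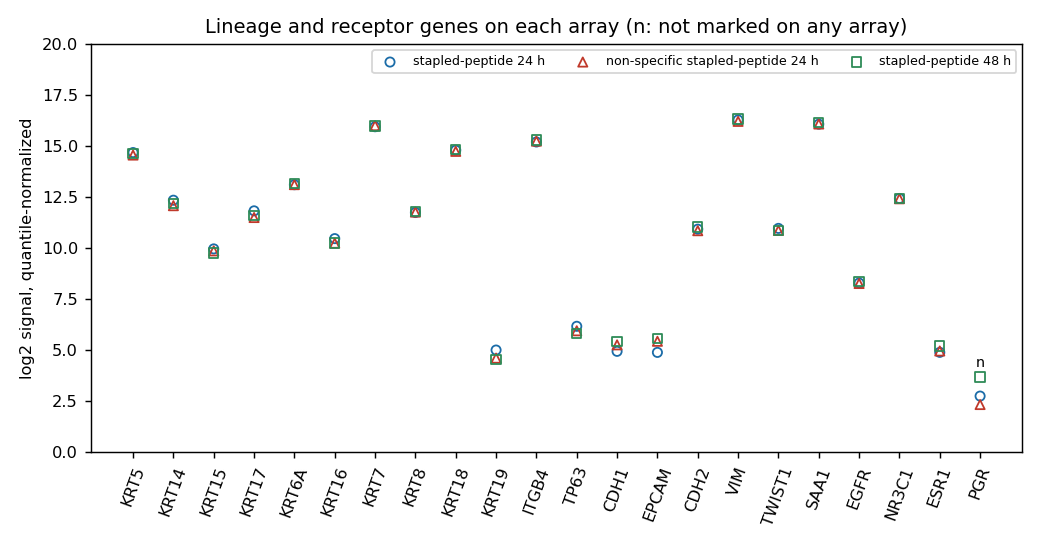
Quantile-normalized log2 signals of 22 lineage and receptor genes are shown on each of the 3 arrays (circle, triangle and square), with "n" above genes well above background on none of them. The symbols lie on top of each other for bright genes such as KRT7 and VIM and spread for dim ones such as CDH1, EPCAM and PGR.

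Markers of other tissues had low list medians. Against 72.5% of all genes, on all 3 arrays were marked 5 of 12 endothelial genes, 9 of 14 leucocyte genes, 2 of 5 erythroid genes, 4 of 7 adipocyte genes, 4 of 13 hepatocyte genes, 4 of 12 neural genes, 3 of 10 skeletal muscle genes, 5 of 8 germ cell genes and 1 of 5 pluripotent cell genes. Without the stapled-peptide 48 h array the muscle count was 5, and without stapled-peptide 24 h the pluripotent count was 2. The list medians were between 2.65 and 4.98, against 6.84 over all genes. Well-known markers lay on both sides, ALB, HBB, MS4A1, EMCN, GFAP, MB, DAZL and SOX2 being marked on none and PECAM1 (6.70), CDH5 (5.15), PTPRC (6.07), CD3E (5.11) and POU5F1 (7.71) on all 3. PTPRC was so marked at 1 of its 4 probes, the others having means of 3.77, 3.20 and 2.32. Other probes of PECAM1 had 5.54 and 4.17, the latter marked on 1 or 2 arrays, and that of POU5F1 had 5.22. The endothelial KDR (9.11), the neural MAP2 (9.37) and the hepatocyte SERPINA1 (9.31) were bright. CD79A, a B cell receptor chain, had 11.10, 10.95 and 11.17, and TNNI2, a fast muscle troponin, had 11.01, 11.05 and 11.02, each at the only probe of the gene. The B cell gene MS4A1 and the muscle genes ACTA1 and CKM were marked on none, while the muscle gene DES (8.57) and the macrophage gene CD68 were marked on all 3 arrays.

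Acute-phase and inflammatory genes were marked in full. All 18 were marked on all 3 arrays, against 72.5% of all genes, with a median of 8.79 against 6.84 over all genes. Without SAA1, a marker of the rule, 17 of 17 were marked, with a median of 8.61. Beside SAA1, C3, the central complement component, had signals between 15.94 and 16.07, the neutrophil chemokine gene CXCL1 had 15.85, 15.79 and 15.89, and SAA2 had 14.18, 14.15 and 14.29 and a mean of 8.01 at its other probe. The superoxide dismutase gene SOD2 (14.34), CXCL2 (12.13) and CFB (11.37) followed. The cytokine genes IL6, IL1B and TNF had means of 6.93, 6.63 and 4.92. SAA1 and SAA2 are nearly identical, and whether their probes tell them apart was not tested.

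Of 23 cornified envelope and squamous genes 15 were marked on all 3 arrays (65.2%, against 72.5% of all genes), 4 on 1 or 2 and 4 on none. Among the 15, 8 had a signal of 6 or more and 7 a lower one. KRT10 (13.26), the calprotectin chain S100A8 (12.58), SPRR1A (9.60, and 3.63 at its other probe) and CSTA (9.46) were bright. CNFN had 8.35 and TGM1 7.81. PPL (11.58) and EVPL (9.82), counted here with the junction genes, were bright too. The envelope precursors IVL (4.78), LORICRIN (2.77, marked on 1 or 2 arrays) and RPTN (marked on none) were dim. Of 19 S100 genes 16 were marked on all 3 arrays, with S100A6 (17.46) brightest. The protease inhibitor gene SERPINB5 (maspin) had 12.80, 12.82 and 12.80, and of its 13 clade B relatives on the array, itself included, 4 were marked on all 3 arrays.

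Of 20 hormone and growth factor receptor genes 14 were marked on all 3 arrays (70.0%, near the 72.5% of all genes). THRA, a thyroid hormone receptor, had 12.81 and 9.20 at its 2 probes, NR3C1, the glucocorticoid receptor, 12.43, 9.08 and 6.72 at its 3 probes, MET, the hepatocyte growth factor receptor, 12.10, and ERBB2 10.42. EGFR, the receptor for EGF, had 8.28, 8.26 and 8.35 and means of 6.56 and 5.65 at its other probes. PGR (2.91), ESR2 (3.73) and ERBB4 (2.50) were among the 4 marked on none. Of 7 EGF family ligands 5 were marked on all 3 arrays (71.4%, again near the share of all genes), AREG, which encodes amphiregulin, with 13.97, 14.18 and 14.03, and EGF (2.13) and HBEGF (1.65) were marked on none.

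The stapled peptides of the study copy a helix of BIG3, encoded by ARFGEF3, by which that protein binds prohibitin 2, a co-regulator of the oestrogen receptor. ESR1, which encodes oestrogen receptor alpha, had 4.89, 4.95 and 5.19 at the brightest of its 3 probes and was marked there on all 3 arrays, while the other probes had means of 1.89 and 1.76 and were marked on none. ARFGEF3 had 5.92, 4.87 and 3.59 at its brightest probe and was marked on 1 or 2 arrays, its other probes having means of 3.95 and 2.95. The array-to-array gap of 2.33 at that probe was the widest of the list, at signals near the background, and was not tested. The oestrogen-responsive genes TFF1 and CCND1, which have other regulators too, had means of 6.43 and 10.30, and PHB1, which encodes prohibitin 1, had 11.46.

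Genes of the chromosome 9p21 neighbourhood, where MCF-10A is known to have lost DNA around the cyclin-dependent kinase inhibitor genes, were marked unevenly. MTAP, an enzyme of methionine salvage and the usual companion of such losses, had 3.91, 2.89 and 3.86 at its brightest probe, and all 3 of its probes were marked on none of the arrays. CDKN2A nevertheless had 8.73, 8.60 and 8.64 at one probe and 4.48, 5.06 and 5.05 at the other, all marked, and CDKN2B had 6.63, 6.12 and 6.15. FOCAD (10.85) and KLHL9 (10.38) were bright, whereas MLLT3 (4.02), DMRTA1 (3.75), ELAVL2 (3.20) and IFNB1 (2.69) were marked on none. Whether the probes of CDKN2A detect RNA of this locus was not tested.

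The 25 genes with the brightest probes had mean log2 signals between 17.18 and 18.11, and their gaps between arrays were at most 0.26. Among them were 16 cytosolic ribosomal protein genes led by RPS2 (18.11) and RPL13 (17.89), the elongation factor gene EEF1A1 (17.76) and the ribosomal RNA gene RNA28SN5. TGFBI, a secreted matrix protein gene that responds to transforming growth factor beta, had 17.73, 17.67 and 17.69, its probe being the brightest of a protein-coding gene outside translation. The metal-binding metallothioneins MT1A (17.31) and MT2A (17.30) also ranked there. Of 12 metallothionein genes 11 were marked on all 3 arrays, against 72.5% of all genes, 8 of them at 12 or more. Their transcripts are nearly identical, and MT1G (1.98) was marked on none. ZNF865 (17.33) and GPR155 (17.21) each had 1 bright probe, while their other probes had means of 6.84 and 5.58, and of 6.97 and 6.51. SLC66A1 (17.67) has only 1 probe with a symbol here.

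Whole families of housekeeping genes were marked almost completely, against 72.5% of all genes. The median log2 signal over all genes was 6.84. All 77 cytosolic and 76 mitochondrial ribosomal protein genes and all 36 nuclear genes of respiratory complex I were marked on all 3 arrays, with median log2 signals of 16.75, 11.36 and 12.96. RPL27A was the single cytosolic ribosomal gene below 12, with 5.54, 4.91 and 5.37 at its only probe. Of 48 proteasome genes 46 were marked. All 15 widely expressed glycolytic enzymes were marked (median 13.26, GAPDH 15.94), against 5 of 10 tissue-restricted ones (median 4.84), and GAPDHS of sperm and SLC2A2 of liver and pancreas were marked on none. All 17 proliferation genes were marked, with a median of 9.90, TYMS (12.49) the brightest and MKI67 at 8.24.

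Families of other tissues were marked least, where 72.5% of all genes were marked on all 3 arrays. Of 355 olfactory receptor genes 103 were marked on all 3 arrays (29.0%), and 92 of these had signals below 6. The brightest, OR2H1, had 10.65, 10.66 and 10.54, and 5.55 at its other probe. Of 25 bitter taste receptor genes 4 were marked, of 85 keratin-associated protein genes 23, of 9 IFNA genes 1 and of 31 beta-defensin genes 11. KRTAP1-3 had 11.72, 11.66 and 11.71 at its brightest probe and 11.04 and 2.23 at its others. LCE1D (15.21), a late cornified envelope gene, and CYP2W1 (16.86), a cytochrome P450 gene, were the brightest of their families, each at 1 probe. What the marks of these receptor genes at signals below 6 stem from was not tested. For comparison, 2 to 5 of 308 negative control spots per array carried the mark.

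HOX genes, the transcription factors of position along the body, were marked more often in the HOXA and HOXC clusters than in HOXB and HOXD. Of 39 genes 22 were marked on all 3 arrays (56.4%, below the 72.5% of all genes). They were 9 of 11 in the HOXA cluster, 7 of 9 in HOXC, 4 of 10 in HOXB and 2 of 9 in HOXD. The shares in HOXA and HOXC were thus not far from that of all genes. HOXC6 (10.96 to 11.03), HOXC9 (10.62), HOXA5 (10.40) and HOXA10 (10.20) were brightest, and no HOXD gene reached a signal of 6.

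The families that were marked in full had CpG-rich promoters, seen in the sequences above. Promoter sequences (RefSeq, GRCh38.p14, 300 bases from 250 before to 50 after the start) were matched for at least 80% of the members of 14 families. A ratio of observed to expected CG above 0.6 was found in 60 of 62 promoters of cytosolic ribosomal genes (96.8%), 66 of 68 of mitochondrial ribosomal genes (97.1%) and 28 of 31 of complex I genes (90.3%), against 48.9% of all 27305 promoters. It was found in 6 of 287 promoters of olfactory receptors (2.09%), 1 of 71 of keratin-associated proteins (1.41%) and 0 of 20 of bitter taste receptors. S100 genes went against the pattern, with 84.2% of members marked on all 3 arrays and 4 of 18 promoters above 0.6. TATAAA in the window named above stood in 34 of 71 promoters of keratin-associated genes (47.9%), as in KRTAP1-3, and in 5 of 18 of S100 genes (27.8%), against 2.48% of all promoters. KRT5 had a ratio of 0.301 and no TATAAA there, RPL13 1.04, MRPS24 0.922 and CSN2 0.216. The families differ in much besides their promoters, and a motif match is a description only.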

How the data were processed

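MCF-10A RNA (100 ng per sample) was labelled with Cy3 and hybridized to Agilent 8 x 60K arrays. The deposited files give spot intensity values that the authors extracted with Feature Extraction (10.7.1.1 in the file headers, 9.5 in the methods) as linear, background-subtracted signals that were not normalized between arrays. In the combined table deposited by the authors, 98.3% to 98.5% of rows lay within 0.1% of the mean signal over the spots of a probe.

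Here control spots and outlier-marked spots (343 to 438 per array) were dropped, which left 7 probes without a value, log2 signals were averaged per probe and quantile-normalized over the 3 arrays, and a probe counted as marked when most of its spots were well above background. A gene's value is that of its brightest marked probe. Symbols came from RefSeq accessions (GRCh38.p14). In a simulation with marks set beforehand, the classes of 50592 of 50592 probes were read back. This checks the code only and not how reliable the marks are. Python 3.11.15, numpy 2.4.6, pandas 2.3.3 and, for normexp, limma 3.58.1 in R 4.3.3 were used.

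The arrays and gene lists were chosen with earlier results of these data known, and the groups of keratins, laminins, integrin chains, metallothioneins and HOX clusters after the signals were seen. Named were the rule's markers, the 25 brightest genes, members of 27 gene lists, the brightest member of each of 28 families, grouped by symbol pattern, and the ends of the longest runs of unmarked neighbours. ANXA8, PHB2, UBE2C, ALDOA, IFNA1, AIF1, HBA1 and TDGF1 have no probe with a symbol here. Precision is limited by having 1 array per condition. Protein sequences were not used here. Some members of the lists are counted but not reported by name here.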

Additional observations from a re-analysis of the deposited data

Results flagged for a closer look

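On the array left out of the profile, non-specific stapled-peptide 48 h, 1109 of the 3908 genes that were marked on none of the 3 arrays and had a value there (28.4%) were well above background. On that array 1 of 308 negative control spots (0.325%) carried the mark. Of genes marked on all 3 arrays 94.9% were marked there too, and of genes marked on 1 or 2 arrays 51.0%. The difference was not tested, as each condition has 1 array.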

How the results depend on the processing

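No paired analysis was possible because each condition has 1 array and no test was made. Counts of probes and genes marked on all 3 arrays stayed within 1.5 times under every alternative run. With the weaker positive-and-significant mark, probes marked on none went from 16326 to 4007 and genes marked on none from 3909 to 885, since that mark asks for less signal. It also raised the marked members of 8 of 27 lists by over 1.5 times, among them the hepatocyte, neural, endothelial and 9p21 lists. Without 1 of the arrays, genes marked on all ranged from 15004 to 15182, genes marked on none from 4156 to 4324, probes marked on all from 28476 to 29000 and on none from 17261 to 17888. Of the 25 brightest genes, 14 remained when a gene's probes were averaged, 22 under normexp and 24 or 25 under the other alternatives. Normexp, whose offset of 50 lifts dim probes, moved the means of 345 of 391 named genes by more than their SD, with a median shift of 0.43, and averaging a gene's probes moved 105, by up to 7.41 downwards. Matching by a gene name column was not run, as the files used here hold none. The comparison of promoters between marked and unmarked genes was void and is not reported here, because the promoter table matched 76.2% of genes, below the 80% asked for.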

Other observations

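Along the chromosomes, genes marked on none of the 3 arrays formed 2770 runs of neighbours among 20435 placed genes, 2042 of them of a single gene and 35 of 5 or more. The longest held 12 small nucleolar RNA genes from SNORD114-5 to SNORD114-16 on chromosome 14, and in the same imprinted region a run of 8 genes reached from RTL1 to SNORD113-6. A run of 8 genes on chromosome 17 went from KRTAP9-3 to KRT33B, in the cluster of hair keratins and their associated proteins. On chromosome 11, runs of 7 genes each went from HBE1, the embryonic globin gene, to OR51Q1, and from OR51T1 to OR51L1, in the olfactory receptors around the beta-globin cluster. Further runs of 7 genes lay on chromosomes 14, 15, 20 (NKX2-2 to SSTR4) and X (RTL3 to TENT5D). Many neighbours in the clusters of small nucleolar RNA, hair keratin and olfactory receptor genes are alike in sequence or share a tissue. The runs are therefore a description.

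SLC38A4, an amino acid transporter gene, had 2.04, 7.49 and 1.98, the widest gap between the arrays among all 20502 genes, and was marked on 1 or 2 of them. Of 23 matrix metalloproteinase genes 15 were marked on all 3 arrays, against 72.5% of all genes, with MMP17 (9.69) and MMP19 (8.90) the brightest and none at 12 or more. Of 24 claudin genes, which seal tight junctions, 10 were marked on all 3 arrays, CLDN19 (8.53, and 4.11 at its other probe), CLDN7 (8.29) and CLDN12 (7.93) leading.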
